A study of Homo sapiens with 12 samples.

Results

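The 43 genes described here make the enzymes, the membrane proteins and the proton pump of the lysosome, together with the transcription factors TFEB and TFE3. They were taken by name from the deposited table of read counts, and all 43 were found among its 32077 genes. They comprise 27 hydrolases and their activators, 5 membrane proteins, 9 subunits of the vacuolar H+-ATPase (V-ATPase) and the 2 transcription factors. The 27, called hydrolases below, include the activator precursor PSAP and the cholesterol carrier NPC2, which are not enzymes. RNA-seq of poly(A)-selected RNA had been made from PC3 and DU145 cells, both established androgen-independent human prostate cancer lines labelled wild type, with PC3 derived from a bone metastasis and DU145 from a brain metastasis. Cells of each line received 2.5 µM pentamidine or vehicle for 48 h, with 3 samples in each of the 4 groups and 12 in all. Each line comes from 1 tumour, and the labels do not say whether the 3 samples of a group were separate cultures, so p-values measure only the spread between these samples, which may be technical.

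Lysosomes break down proteins, glycans, sulfated sugars and lipids with acid hydrolases, most of which reach the organelle by a mannose 6-phosphate tag. The V-ATPase pumps protons into the lumen, with the cytosolic V1 sector hydrolysing ATP and the membrane V0 sector carrying the protons, and heavily glycosylated membrane proteins such as LAMP1 and LAMP2 line the limiting membrane. TFEB and TFE3 belong to the MiT/TFE family of basic helix-loop-helix factors, which are held in the cytosol when phosphorylated by mTORC1 at the lysosome and otherwise bind a palindromic motif, containing CACGTG, in the promoters of many lysosomal genes. Pentamidine is an aromatic diamidine carrying a basic group at each end, and dibasic drugs of this kind can gather in acidic compartments.

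Promoters are shown for 7 of the 10 members that hold this motif upstream of the start site. These are the 6 members with the octamer given below, and NEU1. Windows of 300 bases, from 250 before to 50 after the start, were taken from RefSeq on GRCh38.p14 and matched 30 of the 43 members with 46 windows. The hexamer CACGTG was found in 10 of these 46 windows (21.7%), against 7.26% of all 35116 windows. The octamer TCACGTGA, which contains the hexamer, was found in 6 member windows (13.0%), against 0.980% of all windows. Both motifs are palindromes, so a match on either strand is the same match. The 200 bases before the start are given 5′ to 3′ on the strand of the gene, with each hexamer in capitals.
LAMP1, chr13:113297039-113297238, plus strand: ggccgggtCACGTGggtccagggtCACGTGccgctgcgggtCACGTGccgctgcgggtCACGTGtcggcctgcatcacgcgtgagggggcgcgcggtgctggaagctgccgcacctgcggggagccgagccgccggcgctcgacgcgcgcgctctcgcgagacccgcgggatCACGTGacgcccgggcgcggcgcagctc
MCOLN1, chr19:7522424-7522623, plus strand: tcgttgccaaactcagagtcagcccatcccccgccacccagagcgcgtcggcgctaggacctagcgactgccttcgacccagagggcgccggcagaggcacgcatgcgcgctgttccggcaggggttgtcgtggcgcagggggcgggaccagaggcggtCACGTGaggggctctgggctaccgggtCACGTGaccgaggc
GAA, chr17:80101381-80101580, plus strand: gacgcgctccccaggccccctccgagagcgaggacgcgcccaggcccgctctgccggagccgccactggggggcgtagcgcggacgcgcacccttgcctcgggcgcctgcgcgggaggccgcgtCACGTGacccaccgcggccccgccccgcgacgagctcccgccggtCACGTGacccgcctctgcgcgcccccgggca
GALNS, chr16:88856948-88857147, minus strand: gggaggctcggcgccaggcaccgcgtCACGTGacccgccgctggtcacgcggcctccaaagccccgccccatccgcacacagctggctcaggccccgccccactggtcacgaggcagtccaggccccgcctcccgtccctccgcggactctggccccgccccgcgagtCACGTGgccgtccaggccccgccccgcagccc
CTSA, chr20:45891135-45891334, plus strand: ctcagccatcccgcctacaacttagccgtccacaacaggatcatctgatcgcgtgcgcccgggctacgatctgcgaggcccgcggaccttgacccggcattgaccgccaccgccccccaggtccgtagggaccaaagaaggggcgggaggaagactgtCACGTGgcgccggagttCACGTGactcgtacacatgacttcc
ATP6V0D1, chr16:67481158-67481357, minus strand: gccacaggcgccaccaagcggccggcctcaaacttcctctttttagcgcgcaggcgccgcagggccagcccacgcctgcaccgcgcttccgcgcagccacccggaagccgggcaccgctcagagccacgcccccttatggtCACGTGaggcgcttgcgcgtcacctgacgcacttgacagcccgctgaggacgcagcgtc
NEU1, chr6:31862822-31863021, minus strand: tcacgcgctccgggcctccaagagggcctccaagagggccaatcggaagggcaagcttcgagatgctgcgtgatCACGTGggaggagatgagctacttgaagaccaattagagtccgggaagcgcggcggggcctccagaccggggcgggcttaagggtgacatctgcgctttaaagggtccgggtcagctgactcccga
In the LAMP1 promoter 5 hexamers lie in this stretch and a further one, part of an octamer, begins at position -1 of the window and is cut by the end of the stretch. Counted from the RefSeq start, the hexamer of an octamer begins at -28 in LAMP1, -41 and -14 in MCOLN1, -76 and -31 in GAA, -174 in GALNS, -25 in CTSA and -59 in ATP6V0D1. NEU1 holds the hexamer alone, at -126. ARSB, CD63 and CTSD also hold the hexamer alone, at -160, -180 and -47, and their promoters are not shown. A match describes the letters of the window and is neither a binding site nor a cause of any change given below.

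Each sample held between 13514195 and 15131436 counted reads. Reads on mitochondria-encoded genes took 3.79% to 3.91% of the counts in vehicle-treated PC3 cells and 2.66% to 2.76% in pentamidine-treated ones, and 4.41% to 4.66% and 1.97% to 2.07% in DU145 cells. Their part in the results was not tested, but the numbers of members called, their medians and the values of the named genes were recomputed with these genes left out of the library size. That setting also left out TMM normalisation, so its shifts from the main values are not those of these genes alone. Of the epithelial markers, KRT8 held 286 to 307 counts in vehicle-treated PC3 cells and 37461 to 38812 in vehicle-treated DU145 cells, while EPCAM held 0 to 2 counts and CDH1 0 to 10 in every sample of both lines. EPCAM and CDH1, 2 of the 4 epithelial markers, were thus at or near 0 in cells labelled as carcinoma lines. The other 2, KRT8 and KRT18, held enough counts to be tested in both lines. The names PC3 and DU145 are those of the labels throughout, the identity of the lines was not tested, and every comparison between lines rests on the labels. The 4 epithelial markers summed to 164 to 194 CPM (TMM-normalised counts scaled to a common library size) in vehicle-treated and 196 to 224 CPM in pentamidine-treated PC3 cells, and to 3520 to 3697 and 2489 to 2542 CPM in DU145 cells. Leukocyte, fibroblast and endothelial markers summed to at most 3.14 CPM per list in any sample, and KLK3 and KLK2, both luminal prostate markers, held 0 to 3 counts. In bulk samples such as these, fewer cells of a type and less RNA per cell cannot be told apart.

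The members moved in both directions with pentamidine, and by little. Genes were tested with edgeR's quasi-likelihood test on the samples of each line, with Benjamini-Hochberg adjustment over all genes tested, and 42 members passed the filter on low counts in both lines. A gene is said to have risen or fallen where the adjusted p was below 0.05, and to have passed the threshold of the study where the log2 fold change also exceeded 1 in size. In PC3 cells 13 members rose and 9 fell, against a background of 21.7% of all 13861 genes tested in each direction, and 1 member passed the threshold against 4.75% of all genes. In DU145 cells 14 rose and 8 fell, against 17.2% and 16.8% of 14313 genes, and no member passed the threshold, against 2.03% of all genes. With library size alone as the scaling, 18 members rose and 5 fell in DU145 cells, and the all-gene split moved from 2401 lower calls of 4860 to 1646 of 4924. The median log2 fold change of the members was 0.073 in PC3 and 0.055 in DU145 cells, beside 0.0046 and 0.0085 for all genes. Vehicle- and pentamidine-treated samples did not overlap for 26 of 42 members in each line, against 52.3% of all genes in PC3 and 44.3% in DU145 cells.

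By role, 9 of the 27 hydrolases rose (33.3%) and 5 fell (18.5%) in PC3 cells, against 21.7% of all genes in each direction. In DU145 cells 12 rose (44.4%) and 3 fell (11.1%), against 17.2% and 16.8%. Their median log2 fold changes were 0.10 and 0.15, and no test was made over the group. The V-ATPase subunits had medians of 0.020 in PC3 and -0.14 in DU145 cells. Of the 42 members tested, 6 rose in both lines, namely GAA, GALNS, IDUA, PSAP, TPP1 and ATP6AP1. A further 5 fell in both, namely CTSC, GLA, ATP6V1A, ATP6V1C1 and ATP6V0D1. Of all 13125 genes tested in both lines, 1304 rose in both and 1263 fell in both. The 6 members with the octamer in their promoter did not share a direction: GAA and GALNS rose in both lines, CTSA rose in DU145 cells, MCOLN1 fell in PC3 cells, ATP6V0D1 fell in both, and LAMP1 was called in neither. The plot of the members by sample shows these values.

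**Figure D1:**
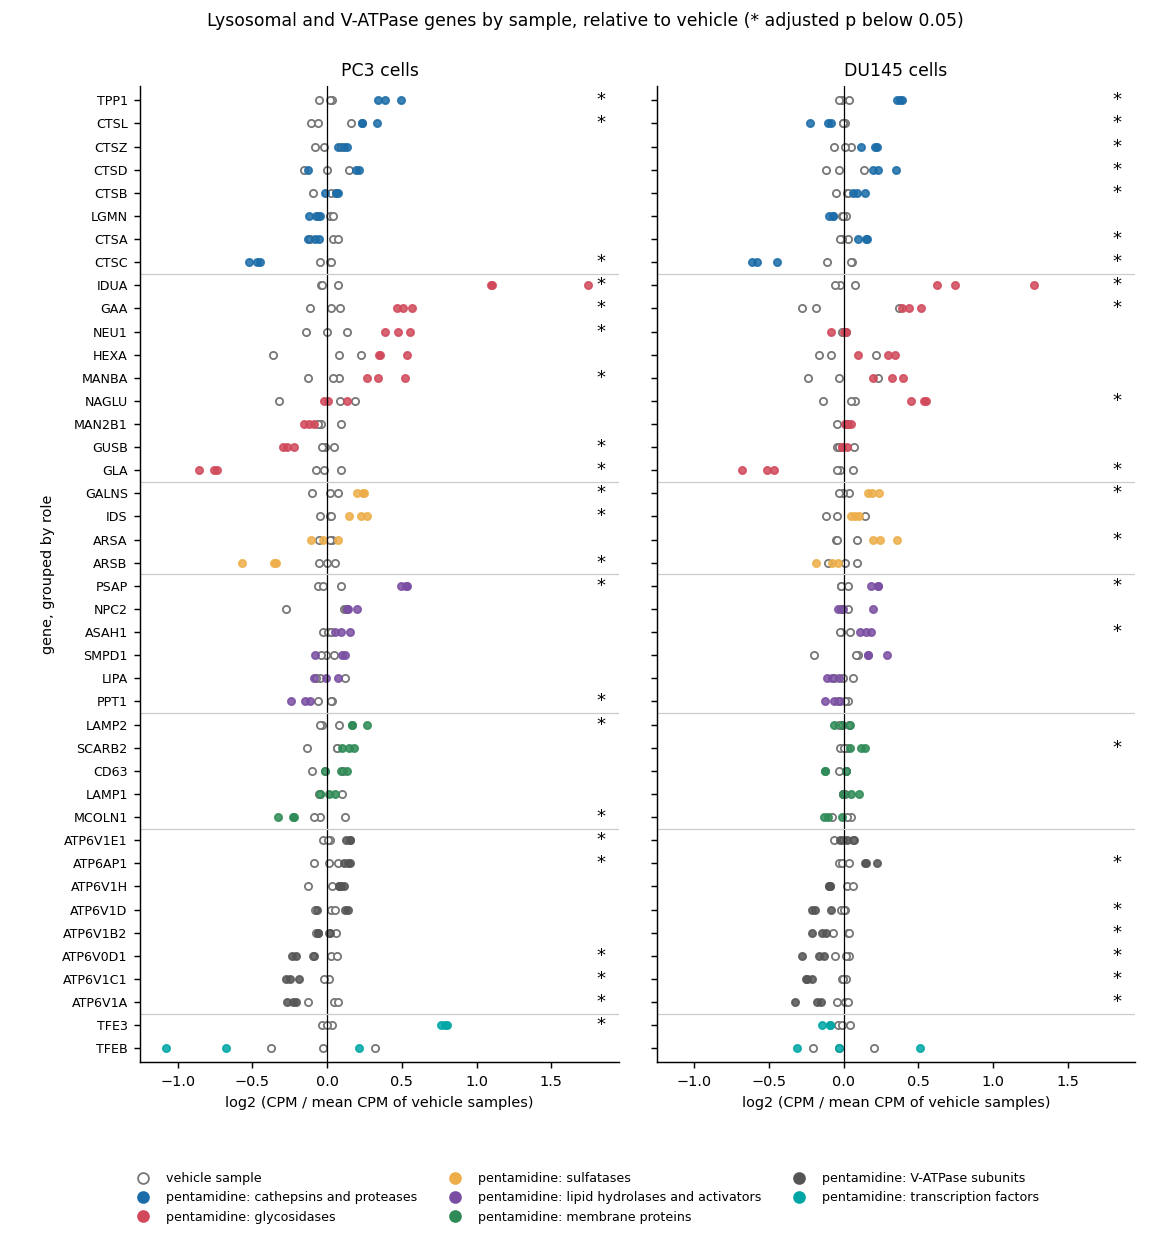
Level of each of the 42 tested members in each sample, as log2 of CPM over the mean CPM of the vehicle-treated samples of the same line, for PC3 cells and DU145 cells. Open grey points are the vehicle-treated samples, coloured points the pentamidine-treated samples by role, and a star marks an adjusted p below 0.05; most coloured points lie within 1 log2 unit of the vehicle-treated samples, with IDUA farthest above, TFE3 and GLA apart from their vehicle-treated samples in PC3 cells, and the low counts of TFEB widely scattered.

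The question of whether the regulators of lysosomal genes moved with the drug was addressed first. TFE3 (chromosome X, 49028726 to 49043486) stood at 137, 131 and 134 CPM in vehicle-treated PC3 cells and at 234, 232 and 227 CPM in pentamidine-treated PC3 cells. The groups did not overlap, and TFE3 rose by 0.79 ± 0.048 on the log2 scale (SE, n = 3 per group, adjusted p = 8.17e-10), a 1.72-fold increase. In DU145 cells it stood at 134, 127 and 129 CPM with vehicle and at 122, 122 and 118 CPM with pentamidine, a log2 fold change of -0.09 ± 0.04 that did not pass the test (adjusted p = 0.0687). The change in PC3 cells exceeded that in DU145 cells by 0.88 ± 0.060 (adjusted p = 1.43e-11), the largest difference between the lines among the 42 members tested. TFEB (chromosome 6, 41683978 to 41736259), the better known factor of the family, was close to the detection limit, with 14, 9 and 10 reads in vehicle-treated and 13, 5 and 7 reads in pentamidine-treated PC3 cells. It had 18, 17 and 23 reads in vehicle-treated and 19, 29 and 16 reads in pentamidine-treated DU145 cells. Its log2 fold changes of -0.39 ± 0.444 in PC3 cells (adjusted p = 0.508) beside 0.11 ± 0.319 in DU145 cells (adjusted p = 0.821) did not pass the test. At this depth changes well above these errors could also be missed. Between the vehicle-treated lines TFEB differed by -0.88 ± 0.336 (adjusted p = 0.03), a call lost in 6 of 13 alternatives.

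Among the 8 cathepsins and related proteases, which cut proteins in the lysosome, 2 rose (25%) and 1 fell (12.5%) in PC3 cells. In DU145 cells 5 rose (62.5%) and 2 fell (25%). Over all genes tested 21.7% were called in each direction in PC3 cells, and 17.2% rose and 16.8% fell in DU145 cells. TPP1 (chromosome 11, 6612763 to 6619461), a tripeptidyl peptidase, stood at 105, 98.7 and 104 CPM in vehicle-treated and at 144, 134 and 129 CPM in pentamidine-treated PC3 cells. In DU145 cells it stood at 128, 124 and 122 CPM with vehicle and at 159, 161 and 163 CPM with pentamidine. Every pentamidine-treated sample lay above every vehicle-treated one of its line, and TPP1 rose 1.33-fold in PC3 cells (log2 0.41 ± 0.056, adjusted p = 1.52e-05) and 1.31-fold in DU145 cells (log2 0.39 ± 0.038, adjusted p = 3.30e-12). Of its exon bases, 11.5% are shared with an overlapping transcript on the same strand. CTSC (chromosome 11, 88293592 to 88337787), the dipeptidyl peptidase that activates granule serine proteases, went the other way. It stood at 180, 188 and 188 CPM against 129, 134 and 136 CPM in PC3 cells, and at 83.6, 83.3 and 74.5 CPM against 59.0, 53.8 and 52.7 CPM in DU145 cells, so the groups were apart in both lines. CTSC fell by 0.48 ± 0.050 in PC3 cells (adjusted p = 7.51e-07) and by 0.53 ± 0.053 in DU145 cells (adjusted p = 9.25e-12).

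CTSL (chromosome 9, 87725519 to 87731393), a cysteine endopeptidase, was the only 1 of the 42 members tested that was called in opposite directions in the 2 lines. Of all 13125 genes tested in both lines, 175 rose in PC3 and fell in DU145 cells, and 142 did the reverse. CTSL stood at 69.3, 71.5 and 83.5 CPM in vehicle-treated and at 88.0, 94.2 and 87.8 CPM in pentamidine-treated PC3 cells. In DU145 cells it stood at 104, 102 and 102 CPM against 95.7, 96.9 and 88.0 CPM. The groups did not overlap in either line. The log2 fold change was 0.27 ± 0.069 in PC3 cells (adjusted p = 0.00389) beside -0.12 ± 0.044 in DU145 cells (adjusted p = 0.0295), with a difference of 0.39 ± 0.082 (adjusted p = 7.67e-04). The fall in DU145 cells was not called in 6 of 14 alternatives, where its adjusted p ranged from 0.0214 to 0.225 over all 14. CTSA, the carboxypeptidase that protects NEU1 in a complex, stood at 231, 225 and 222 CPM in vehicle-treated and at 252, 251 and 242 CPM in pentamidine-treated DU145 cells, without overlap. CTSA rose by 0.15 ± 0.034 in DU145 cells (adjusted p = 3.99e-04), against -0.08 among PC3 cells (adjusted p = 0.242), and differed between the lines by -0.23 ± 0.063 (adjusted p = 0.00776). CTSD, the main aspartic protease, stood at 61.0, 72.5 and 64.7 CPM in vehicle-treated and at 84.2, 77.6 and 75.6 CPM in pentamidine-treated DU145 cells and rose there by 0.27 ± 0.054 (adjusted p = 4.85e-05), against 0.10 in PC3 cells (adjusted p = 0.389). Of the CTSD exon bases 41.7% are shared with another gene on the same strand, and 28.5% of those of CTSA with genes on the opposite strand, so reads could be divided between them. CTSZ, a carboxypeptidase, rose in DU145 cells by 0.20 (adjusted p = 4.35e-04). CTSB, a cysteine protease with exopeptidase activity, rose there by 0.11 (adjusted p = 0.00978), a call lost in the fit of all 12 samples (adjusted p = 0.0701), without vehicle replicate 3 (adjusted p = 0.0933) and without pentamidine replicate 1 (adjusted p = 0.0791). LGMN, the asparaginyl endopeptidase legumain, had log2 fold changes of -0.08 and -0.07 and was called in neither line.

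Of the 9 glycosidases, which trim glycans, glycogen and glycolipids, 4 rose (44.4%) and 2 fell (22.2%) in PC3 cells, against 21.7% of all genes in each direction. In DU145 cells 3 rose (33.3%) and 1 fell (11.1%), against 17.2% and 16.8%. IDUA (chromosome 4, 986997 to 1004506), the α-L-iduronidase of glycosaminoglycan breakdown, was the only member past the threshold of the study, and only in PC3 cells. It had 26, 25 and 22 reads in vehicle-treated and 83, 50 and 53 reads in pentamidine-treated PC3 cells, and 47, 49 and 55 against 122, 89 and 80 reads in DU145 cells. Pentamidine replicate 1 was the highest in both lines, and the groups did not overlap. IDUA rose 2.55-fold in PC3 cells (log2 1.35 ± 0.243, adjusted p = 2.51e-04) and 1.89-fold in DU145 cells (log2 0.92 ± 0.180, adjusted p = 4.79e-05), and leaving out any 1 sample gave 1.10 to 1.46 in PC3 cells and 0.70 to 1.04 in DU145 cells. SLC26A1, a sulfate transporter gene on the opposite strand, shares 13.3% of the IDUA exon bases and also rose, by 1.36 in PC3 cells (adjusted p = 1.02e-04) beside 0.65 in DU145 cells (adjusted p = 0.0212). Whether strand was used in counting is not stated, and without it the reads of the overlap cannot be told apart.

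GLA (chromosome X, 101397803 to 101407925), the α-galactosidase that removes terminal galactose from globotriaosylceramide, stood at 57.7, 64.8 and 60.1 CPM in vehicle-treated and at 36.0, 36.6 and 33.6 CPM in pentamidine-treated PC3 cells. In DU145 cells it stood at 34.8, 32.7 and 32.2 CPM with vehicle and at 23.3, 24.1 and 20.7 CPM with pentamidine. All pentamidine-treated samples lay below all vehicle-treated ones of the same line, and GLA fell by 0.78 ± 0.071 on the log2 scale in PC3 cells (adjusted p = 1.21e-07) and by 0.53 ± 0.076 in DU145 cells (adjusted p = 1.01e-07). This was the largest fall among the members in both lines, level with CTSC in DU145 cells, and the difference between the lines of -0.25 did not pass the test (adjusted p = 0.0859). GAA (chromosome 17, 80101556 to 80119879), the acid α-glucosidase that degrades glycogen, stood at 3.77, 4.34 and 4.16 CPM in vehicle-treated and at 5.81, 5.65 and 6.07 CPM in pentamidine-treated PC3 cells. In DU145 cells it stood at 16.7, 11.4 and 10.7 CPM with vehicle, replicate 1 being far above the others, and at 16.9, 17.5 and 18.5 CPM with pentamidine. GAA rose by 0.52 ± 0.161 in PC3 cells (adjusted p = 0.0155) and by 0.47 ± 0.112 in DU145 cells (adjusted p = 7.17e-04). The call in PC3 cells was lost without pentamidine replicate 3 (adjusted p = 0.0529) and with DESeq2 (adjusted p = 0.0527).

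NEU1 (chromosome 6, 31857659 to 31862906), the lysosomal sialidase, stood at 48.5, 53.5 and 58.7 CPM in vehicle-treated and at 69.9, 78.7 and 74.5 CPM in pentamidine-treated PC3 cells. It stood at 41.7, 41.5 and 42.3 CPM against 39.5, 41.8 and 42.2 CPM in DU145 cells, where the groups overlapped. NEU1 rose by 0.48 ± 0.073 in PC3 cells (adjusted p = 4.89e-05) and had a log2 fold change of -0.01 in DU145 cells (adjusted p = 0.951), and the difference of 0.48 ± 0.092 passed the test (adjusted p = 2.98e-04). NAGLU, the α-N-acetylglucosaminidase of heparan sulfate breakdown, showed the reverse. It stood at 6.74, 8.95 and 9.57 CPM against 9.25, 8.44 and 8.30 CPM in PC3 cells, which overlapped, and at 11.6, 11.4 and 9.97 CPM against 15.0, 15.9 and 16.1 CPM in DU145 cells, which did not. NAGLU rose by 0.53 ± 0.106 in DU145 cells (adjusted p = 6.38e-05), and the log2 fold change in PC3 cells was 0.05 (adjusted p = 0.82). The difference of -0.48 (adjusted p = 0.0477) was not called in 14 of 19 alternatives, with an adjusted p of 0.00623 to 0.139. GUSB, the β-glucuronidase, stood at 55.1, 54.5 and 57.7 CPM in vehicle-treated and at 47.7, 46.4 and 45.5 CPM in pentamidine-treated PC3 cells. In DU145 cells it stood at 61.7, 57.1 and 57.6 CPM against 58.3, 59.7 and 58.5 CPM, which overlapped. GUSB fell by 0.26 ± 0.063 in PC3 cells (adjusted p = 0.00317), with 0.02 in DU145 cells (adjusted p = 0.835) and a difference of -0.28 (adjusted p = 0.0122). MANBA, the β-mannosidase, rose by 0.39 in PC3 cells (adjusted p = 0.0127), a call lost without vehicle replicate 2 (adjusted p = 0.0658) or pentamidine replicate 3 (adjusted p = 0.0756). HEXA, a β-hexosaminidase subunit, and MAN2B1, the α-mannosidase, were called in neither line.

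The 4 sulfatases remove sulfate from glycosaminoglycans and sulfatide. In PC3 cells 2 rose (50%) and 1 fell (25%), against 21.7% of all genes in each direction. In DU145 cells 2 rose (50%) and none fell, against 17.2% and 16.8%. GALNS, the N-acetylgalactosamine-6-sulfatase, stood at 89.5, 79.5 and 86.3 CPM against 100, 97.8 and 101 CPM in PC3 cells, and at 65.4, 63.5 and 62.5 CPM against 71.4, 75.1 and 72.9 CPM in DU145 cells. The groups were apart in both lines, and GALNS rose by 0.23 in PC3 cells (adjusted p = 0.00346) and by 0.21 in DU145 cells (adjusted p = 5.28e-04). ARSB, the N-acetylgalactosamine-4-sulfatase, stood at 23.0, 22.2 and 23.9 CPM in vehicle-treated and at 15.5, 18.2 and 18.0 CPM in pentamidine-treated PC3 cells. ARSB fell by 0.41 ± 0.093 in PC3 cells (adjusted p = 0.00162), against -0.08 in DU145 cells (adjusted p = 0.41), where vehicle gave 34.2, 32.4 and 30.0 CPM and pentamidine 28.4, 31.3 and 30.5 CPM. The difference of -0.33 (adjusted p = 0.0407) was not called in 11 of 19 alternatives, with an adjusted p of 0.0118 to 0.142. ARSA, the sulfatide sulfatase, stood at 25.5, 27.0 and 26.8 CPM against 27.7, 24.5 and 25.9 CPM in PC3 cells, which overlapped. In DU145 cells it stood at 17.6, 17.7 and 19.3 CPM against 23.3, 21.6 and 20.8 CPM, which did not. ARSA rose by 0.28 in DU145 cells (adjusted p = 0.0092), a call lost without pentamidine replicate 1 (adjusted p = 0.0677), against -0.02 in PC3 cells (adjusted p = 0.888). IDS, the iduronate 2-sulfatase, rose by 0.22 in PC3 cells (adjusted p = 0.00516).

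Of the 6 lipid hydrolases and activators, PSAP (chromosome 10, 71816298 to 71851375) moved most. PSAP encodes prosaposin, the precursor of the saposins that present sphingolipids to their hydrolases. It stood at 537, 549 and 597 CPM in vehicle-treated and at 813, 808 and 791 CPM in pentamidine-treated PC3 cells, and at 775, 749 and 749 CPM against 891, 890 and 862 CPM in DU145 cells. Every pentamidine-treated sample lay above the vehicle-treated ones of its line. PSAP rose 1.44-fold in PC3 cells (log2 0.52 ± 0.049, adjusted p = 2.05e-07) and 1.18-fold in DU145 cells (log2 0.23 ± 0.029, adjusted p = 4.73e-09), and the rise was larger in PC3 cells by 0.29 ± 0.054 (adjusted p = 2.54e-04). ASAH1, the acid ceramidase, rose by 0.16 in DU145 cells (adjusted p = 0.0105), a call lost without pentamidine replicate 2 (adjusted p = 0.0658). PPT1, the palmitoyl-protein thioesterase, fell by 0.16 in PC3 cells (adjusted p = 0.0169), a call lost without vehicle replicate 2 (adjusted p = 0.0533) or pentamidine replicate 3 (adjusted p = 0.103). Of its exon bases 23.4% lie opposite CAP1. SMPD1, the acid sphingomyelinase, LIPA, the acid lipase, and NPC2, the soluble carrier of cholesterol, were called in neither line.

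The membrane proteins moved little. LAMP1 (chromosome 13, 113297241 to 113323672) stood at 206, 205 and 228 CPM in vehicle-treated and at 215, 221 and 206 CPM in pentamidine-treated PC3 cells, and at 217, 217 and 219 CPM against 225, 234 and 217 CPM in DU145 cells. The groups overlapped in both lines, with log2 fold changes of 0.01 in PC3 cells (adjusted p = 0.901) beside 0.07 in DU145 cells (adjusted p = 0.148). LAMP2 (chromosome X, 120427827 to 120469365), which also serves chaperone-mediated autophagy, stood at 85.2, 92.3 and 84.3 CPM against 98.0, 98.0 and 105 CPM in PC3 cells and at 69.8, 72.2 and 68.9 CPM against 69.9, 67.4 and 72.5 CPM in DU145 cells. LAMP2 rose by 0.20 ± 0.059 in PC3 cells (adjusted p = 0.00976), a call lost without pentamidine replicate 3 (adjusted p = 0.0594). In DU145 cells its log2 fold change was 0.01 (adjusted p = 0.928), and the difference of 0.20 did not pass the test (adjusted p = 0.065). MCOLN1, the calcium release channel TRPML1, stood at 36.5, 35.5 and 41.0 CPM in vehicle-treated and at 32.3, 30.0 and 32.1 CPM in pentamidine-treated PC3 cells. MCOLN1 fell there by 0.25 (adjusted p = 0.0124), a call lost without vehicle replicate 3 (adjusted p = 0.0591) or pentamidine replicate 2 (adjusted p = 0.0627). In DU145 cells it stood at 32.4, 29.7 and 31.8 CPM against 31.0, 29.1 and 28.6 CPM, which overlapped, with a log2 fold change of -0.07 (adjusted p = 0.508). SCARB2, the sorting receptor of β-glucocerebrosidase, rose by 0.12 in DU145 cells (adjusted p = 0.0341), a call lost in 7 of 14 alternatives, and the tetraspanin CD63 was called in neither line.

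Of the 8 V-ATPase subunits tested, 2 rose (25%) and 3 fell (37.5%) in PC3 cells, against 21.7% of all genes in each direction. In DU145 cells 1 rose (12.5%) and 5 fell (62.5%), against 17.2% and 16.8%. ATP6V1C1, the C subunit that joins V1 to V0, stood at 83.5, 83.8 and 81.8 CPM in vehicle-treated and at 72.8, 70.0 and 68.5 CPM in pentamidine-treated PC3 cells, and at 111, 109 and 110 CPM against 93.1, 92.6 and 95.1 CPM in DU145 cells. The groups were apart in both lines, and ATP6V1C1 fell by 0.23 ± 0.056 (adjusted p = 0.00278) and by 0.22 ± 0.042 (adjusted p = 3.81e-05). ATP6V1A, the catalytic A subunit, stood at 56.6, 57.5 and 50.2 CPM against 47.3, 46.6 and 45.5 CPM in PC3 cells, and at 75.1, 76.0 and 72.2 CPM against 59.4, 65.7 and 66.9 CPM in DU145 cells. ATP6V1A fell by 0.23 ± 0.069 in PC3 cells (adjusted p = 0.0112), a call lost without vehicle replicate 2 (adjusted p = 0.0539), and by 0.20 ± 0.051 in DU145 cells (adjusted p = 0.00152). ATP6V0D1, the d subunit of V0, stood at 166, 152 and 170 CPM against 138, 153 and 140 CPM in PC3 cells, where the groups overlapped, and at 114, 112 and 107 CPM against 99.3, 101 and 91.7 CPM in DU145 cells. ATP6V0D1 fell by 0.17 in both lines (PC3 adjusted p = 0.0213, DU145 adjusted p = 0.00141), and the call in PC3 cells was lost without vehicle replicate 3 (adjusted p = 0.0674), pentamidine replicate 1 (adjusted p = 0.118) or pentamidine replicate 3 (adjusted p = 0.0873).

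ATP6V1B2, the B subunit of V1, fell by 0.14 in DU145 cells (adjusted p = 0.00705), a call lost with library size alone (adjusted p = 0.0885) or without vehicle replicate 3 (adjusted p = 0.0533). ATP6V1D, the D subunit of the central stalk, fell there by 0.15 (adjusted p = 0.0213), a call lost in 6 of 14 alternatives. ATP6AP1, the accessory protein Ac45, rose by 0.14 in PC3 cells (adjusted p = 0.04), where it was not called in 9 of 14 alternatives, and by 0.19 in DU145 cells (adjusted p = 3.64e-04). ATP6V1E1, a peripheral stalk subunit, rose by 0.15 in PC3 cells (adjusted p = 0.0339) and was not called in 11 of 14 alternatives. With DESeq2 or with library size alone, no V-ATPase subunit was called higher in PC3 cells, whereas 3 to 5 were called lower in DU145 cells in every alternative run. ATP6V1H, which regulates the assembled pump, was called in neither line. ATP6V0C, the proteolipid that forms the proton-carrying ring, had only 1 to 10 reads per sample and was not tested. Of its exon bases 72.1% are shared on the same strand with 2 other genes of the annotation, which were not analysed here.

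**Figure D2:**
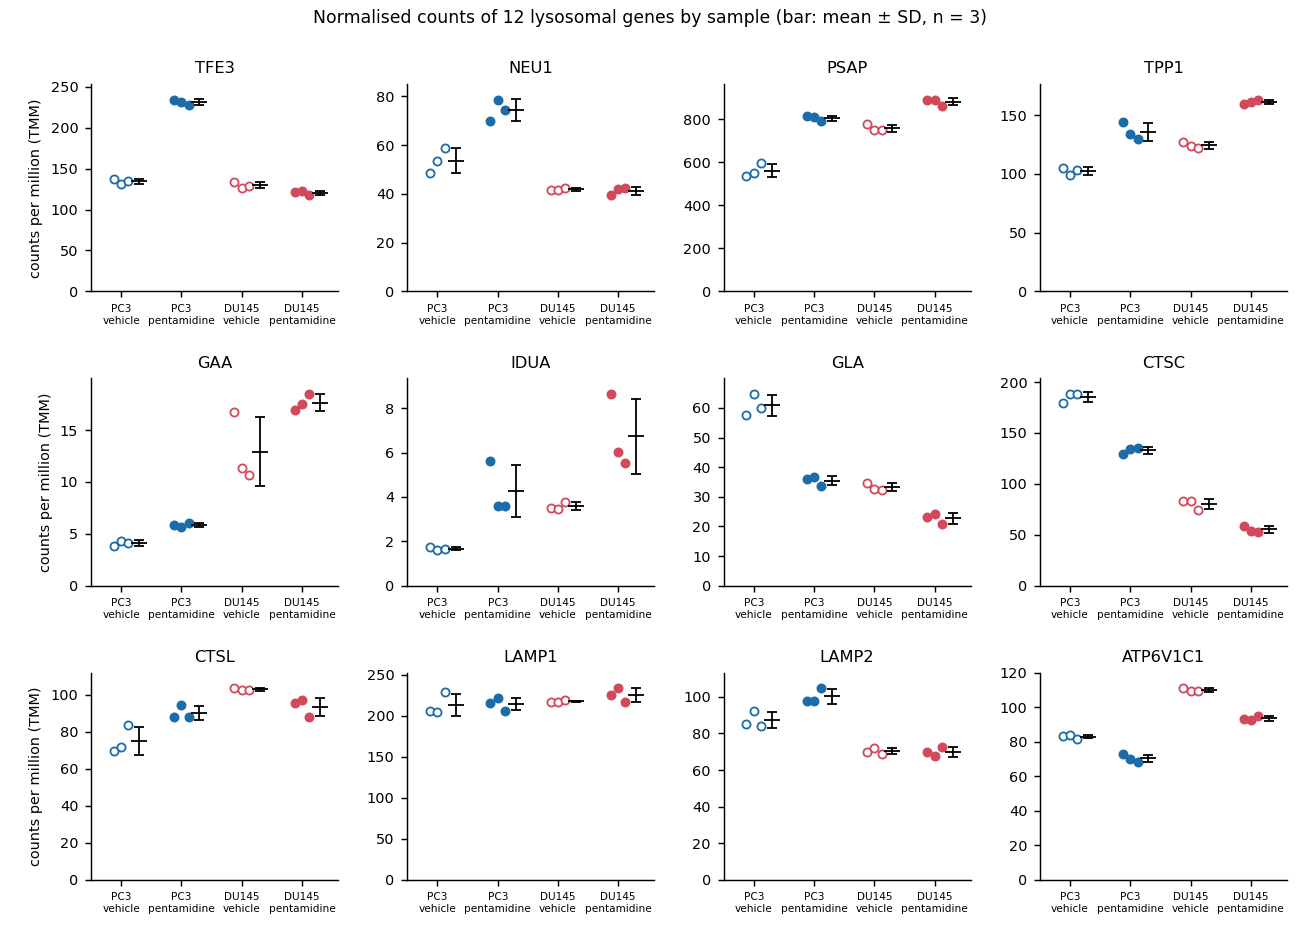
CPM of 12 members in each of the 12 samples, with the mean and SD of each group of 3, for vehicle- and pentamidine-treated PC3 and DU145 cells, each panel with an axis from 0. TFE3 and NEU1 are higher with pentamidine in PC3 cells and near their vehicle level in DU145 cells, PSAP, TPP1, GAA and IDUA are higher in both, and GLA, CTSC and ATP6V1C1 are lower in both.

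The effect of pentamidine was then compared between the lines with a test of the difference itself. Of the 42 members, 4 differed toward a more positive change in PC3 cells (TFE3, NEU1, CTSL and PSAP) and 4 toward a more negative one (NAGLU, ARSB, GUSB and CTSA), against a background of 10.2% and 10.3% of 15226 genes. The median difference of the members was 0.010, and that of all genes -0.0091. Of the 8 calls, 6 were kept in every alternative, and those of NAGLU and ARSB were not. No V-ATPase subunit and no membrane protein passed this test. With library size alone 4 members were higher and 7 lower, with 2262 of 3390 calls over all genes on the lower side against 1566 of 3112 with TMM. With mitochondria-encoded genes left out of the library size, again without TMM, 4 were higher and 6 lower, with 2036 of 3284.

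**Figure D3:**
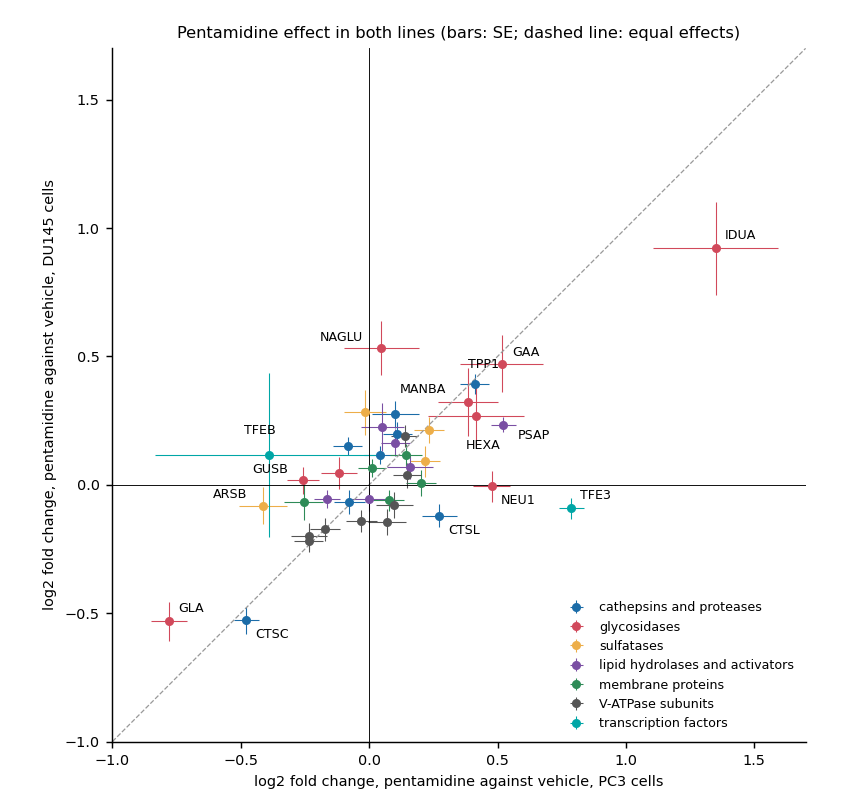
Log2 fold change with pentamidine in DU145 cells against that in PC3 cells for the 42 tested members, with bars of 1 SE, colours by role and a dashed line where both effects are equal. TFE3 (0.79 and -0.09) and NEU1 (0.48 and -0.01) lie along the PC3 axis, IDUA (1.35 and 0.92) is highest in both lines, and GLA (-0.78 and -0.53) and CTSC (-0.48 and -0.53) are lowest.

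The levels of the members already differed between the lines without the drug. Among vehicle-treated cells 18 members were higher and 20 lower in PC3 than in DU145 cells, against a background of 31.5% and 33.8% of 14394 genes, and the 3 samples of each line did not overlap for 37 of 42 members, against 69.0% of all genes. The 5 members past a log2 difference of 1 are CTSB, GAA, HEXA, CTSC and IDUA, against 19.2% of all genes. CTSB stood at 57.3, 62.4 and 63.7 CPM in PC3 cells and at 201, 202 and 192 CPM in DU145 cells, 0.303 times the DU145 level (log2 -1.72 ± 0.055, adjusted p = 1.17e-13). GAA was 0.313 times and HEXA 0.353 times the DU145 level, with log2 differences of -1.68 and -1.50, and IDUA differed by -1.12. CTSC was 2.27-fold higher in PC3 cells (log2 1.18, adjusted p = 1.46e-11), and GLA, at 0.85, IDS, at 0.84, and ATP6AP1, at 0.82, were also higher. TFE3 did not differ detectably between the vehicle-treated lines, at 0.02 (adjusted p = 0.713).

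Levels of different genes were compared as CPM per kilobase of exon. PSAP was the highest member in each group, at 173 ± 9.82 and 248 ± 3.58 CPM per kilobase (SD, n = 3) in vehicle- and pentamidine-treated PC3 cells, and at 234 ± 4.69 and 272 ± 5.01 in DU145 cells. CD63 came next, at 51.8, 54.5, 56.6 and 53.7 CPM per kilobase in the same order of groups, but its place was not resolved in PC3 cells. There, with vehicle, the range of mean ± SD of CD63 (SD 3.64) overlapped those of PPT1 (48.4 ± 1.75) and CTSZ (47.8 ± 2.96). With pentamidine the range of CD63 (SD 2.83) overlapped those of TFE3 (54.0 ± 0.832) and CTSZ (51.5 ± 1.20). TFE3 went from 31.4 to 54.0 CPM per kilobase in PC3 cells and stood at 30.4 and 28.2 in DU145 cells. The lowest values were those of TFEB and ATP6V0C, the latter a gene whose exon bases are mostly shared with genes not analysed here, so that its value may not be its level. They stood at 0.134 for TFEB and 0.21 for ATP6V0C in vehicle-treated PC3 cells and 0.243 and 0.144 in vehicle-treated DU145 cells.

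**Figure D4:**
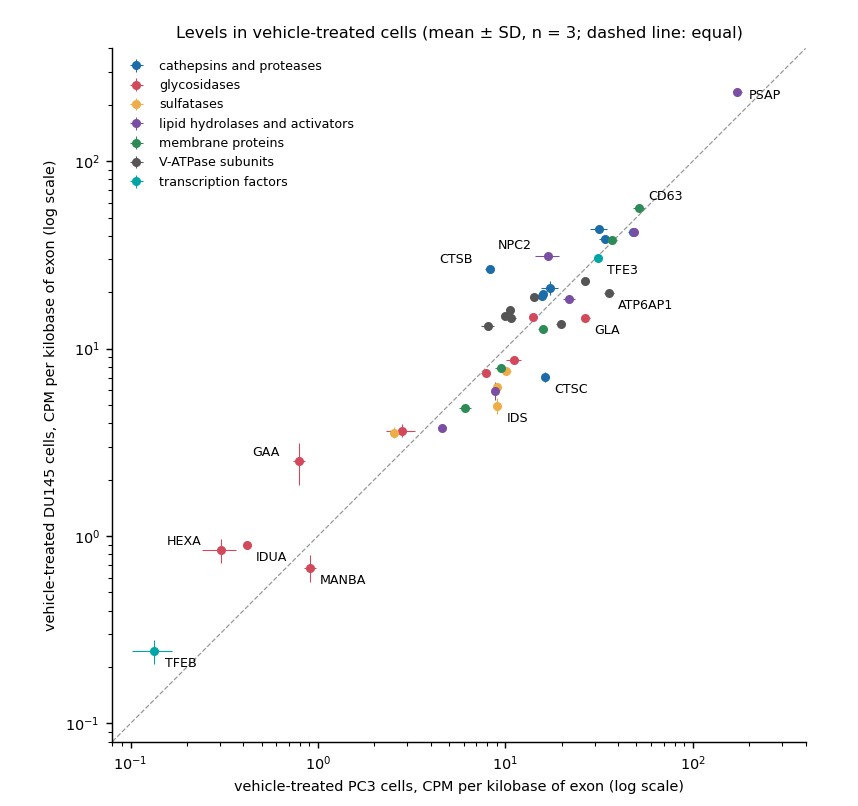
Mean CPM per kilobase of exon of the 42 tested members in vehicle-treated PC3 and DU145 cells on a log axis, with the SD of 3 samples and colours by role. PSAP (173 in PC3 and 234 in DU145 cells) stands above all others and TFEB (0.134 and 0.243) below.

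Summed over members, the CPM of the 27 hydrolases was 2352 ± 79.3 with vehicle against 2587 ± 32.4 with pentamidine in PC3 cells, and 2561 ± 33.8 against 2761 ± 51.6 in DU145 cells, with no overlap between the groups of either line. Without PSAP, a split chosen after its values were seen, the other 26 hydrolases summed to 1791 ± 50.9 CPM with vehicle and 1783 ± 21.4 CPM with pentamidine in PC3 cells, and to 1803 ± 21.8 and 1880 ± 36.2 CPM in DU145 cells. The PC3 groups overlapped and the DU145 groups did not. The V-ATPase subunits summed to 724 ± 15.2 and 713 ± 11.2 CPM in PC3 cells, which overlapped, and to 719 ± 1.78 and 668 ± 10.5 CPM in DU145 cells, which did not. The membrane proteins summed to 593 ± 14.7 and 619 ± 8.97 CPM in PC3 cells and to 561 ± 1.85 and 565 ± 14.9 CPM in DU145 cells, where the groups overlapped.

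Other genes of the lysosome were counted from lists of 112 genes in all, of which 93 were tested in PC3 and 98 in DU145 cells. In PC3 cells 19 rose and 14 fell, 2 of them past the threshold, and in DU145 cells 22 rose and 16 fell, again 2 past it. These are 20.4% and 15.1% of the tested list genes in PC3 cells, against 21.7% of all genes in each direction, and 22.4% and 16.3% in DU145 cells, against 17.2% and 16.8%, and the median over the tested genes was 0.023 on the log2 scale in each line. Of the other lysosomal enzymes 7 rose (25%) and 5 fell (17.9%) of 28 in PC3 cells, against the same all-gene shares. In DU145 cells 11 rose (35.5%) and 3 fell (9.68%) of 31. DNASE2, the acid DNase, rose in both lines, by 0.85 in PC3 cells (adjusted p = 6.71e-08) beside 0.58 in DU145 cells (adjusted p = 6.38e-09). AGA, which splits glycoasparagine, rose by 0.69 in PC3 cells (adjusted p = 3.44e-04) and by 0.54 in DU145 cells (adjusted p = 0.00247). The lysosomal sulfatase ARSG rose by 0.56 in PC3 cells (adjusted p = 0.00347). CTSV, a cathepsin close to CTSL in sequence, fell by 0.93 in PC3 cells (adjusted p = 1.21e-05) and GGH, the γ-glutamyl hydrolase, by 0.65 (adjusted p = 7.73e-08). In DU145 cells the carboxypeptidase CPVL rose by 0.64 (adjusted p = 1.88e-04) and the sialate esterase SIAE by 0.55 (adjusted p = 0.00103), with a rise of 0.35 in PC3 cells (adjusted p = 0.0394). GGH fell by 0.23 and the carboxypeptidase PRCP by 0.17 in DU145 cells, with adjusted p of 3.86e-04 and 0.0102. The ganglioside activator GM2A fell by 0.49 in PC3 cells (adjusted p = 8.62e-06) and by 0.13 in DU145 cells (adjusted p = 0.0462).

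Among 25 other membrane proteins and transporters 6 rose (24%) and 2 fell (8%) in PC3 cells, against 21.7% of all genes in each direction. In DU145 cells 6 rose (24%) and 5 fell (20%), against 17.2% and 16.8%. LAMP3, an inducible relative of LAMP1 and LAMP2, had 4, 1 and 4 reads in vehicle-treated and 65, 85 and 72 reads in pentamidine-treated PC3 cells, and 62, 73 and 69 against 72, 51 and 53 reads in DU145 cells. The PC3 groups were far apart while the DU145 groups overlapped, and LAMP3 rose by 4.58 ± 0.358 in PC3 cells (adjusted p = 1.94e-08). The channel MCOLN3 rose by 0.86 in PC3 cells (adjusted p = 7.06e-04) beside 0.34 in DU145 cells (adjusted p = 0.00298). NPC1, which exports cholesterol handed over by NPC2, rose by 0.72 in PC3 cells (adjusted p = 7.58e-09) and fell by 0.13 in DU145 cells (adjusted p = 0.0199). The peptide transporter ABCB9 fell by 0.34 (adjusted p = 0.0478), and LAPTM4B by 0.21 (adjusted p = 0.00332), with a fall of 0.09 in DU145 cells (adjusted p = 0.0196). In DU145 cells the potassium and proton channel TMEM175 rose by 0.35 (adjusted p = 0.00413) and ABCA2 by 0.30 (adjusted p = 3.54e-04). The amino acid transporter SLC36A1 fell by 0.41 (adjusted p = 7.67e-07), the channel MCOLN2 by 0.38 (adjusted p = 0.00815) and the metal transporter SLC11A2 by 0.14 (adjusted p = 0.0328).

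Of the other V-ATPase subunits 1 rose (9.09%) and 2 fell (18.2%) of 11 tested in PC3 cells, against 21.7% of all genes in each direction. In DU145 cells 2 rose (16.7%) and 3 fell (25%) of 12, against 17.2% and 16.8%. ATP6V0A4, a tissue-restricted a subunit, had 38, 38 and 49 reads in vehicle-treated and 10, 7 and 16 reads in pentamidine-treated PC3 cells, without overlap, and fell by 1.91 ± 0.322 (adjusted p = 1.31e-04). ATP6V0E2 fell by 0.51 in PC3 cells (adjusted p = 6.73e-07) beside 0.18 in DU145 cells (adjusted p = 0.00291), and ATP6V1G1 rose by 0.32 in PC3 cells (adjusted p = 6.02e-04). In DU145 cells ATP6V1B1 rose by 1.46 ± 0.426 (adjusted p = 0.00576) and ATP6V1E2 rose by 0.30 (adjusted p = 0.018). ATP6V1C2 fell by 1.03 ± 0.330 (adjusted p = 0.0115) and ATP6V0E1 fell by 0.22 (adjusted p = 1.64e-04). ATP6V1B1 and ATP6V1C2, the 2 past the threshold, gave values in only 12 and 13 alternatives, against 14 for ATP6V0E1. Their calls were lost in 1 and 2 of these.

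Of 9 genes of mannose 6-phosphate tagging and sorting 1 rose (11.1%) and 3 fell (33.3%) in PC3 cells, against 21.7% of all genes in each direction. In DU145 cells 1 rose (11.1%) and 1 fell (11.1%), against 17.2% and 16.8%. IGF2R, the large mannose 6-phosphate receptor, rose by 0.57 in PC3 cells (adjusted p = 3.63e-08), while the adaptor GGA2 fell by 0.55 (adjusted p = 3.62e-07), the phosphotransferase subunit GNPTAB by 0.22 (adjusted p = 0.0123) and the receptor SORT1 by 0.22 (adjusted p = 0.00257). In DU145 cells GNPTG, another subunit of that phosphotransferase, rose by 0.26 (adjusted p = 0.00219) and the small receptor M6PR fell by 0.16 (adjusted p = 8.58e-04). Of the MiT/TFE relatives and mTORC1 genes 4 rose (23.5%) and 2 fell (11.8%) of 17 in PC3 cells, against the same all-gene shares. In DU145 cells 2 rose (11.1%) and 3 fell (16.7%) of 18. The GTPase RRAGC rose by 0.57 in PC3 cells (adjusted p = 4.83e-04) and folliculin, FLCN, its GTPase-activating protein, by 0.33 (adjusted p = 0.00326), while the folliculin partner FNIP2 fell by 0.46 (adjusted p = 7.69e-04) and MITF fell by 0.33 (adjusted p = 0.0251). LAMTOR3, part of the Ragulator scaffold, rose by 0.25 (adjusted p = 0.0179). TSC2 rose by 0.20 in PC3 cells (adjusted p = 0.0149). In DU145 cells TSC2 rose by 0.25 (adjusted p = 3.28e-06) and LAMTOR1 by 0.16 (adjusted p = 0.00189), while FNIP2 fell by 0.23 (adjusted p = 0.0472), RPTOR by 0.17 (adjusted p = 0.00232) and MTOR by 0.11 (adjusted p = 0.0153). Of 3 galectins, which bind exposed glycans of damaged lysosomes, none was called in PC3 cells, and LGALS3 fell by 0.42 in DU145 cells (adjusted p = 0.022). Of the genes named from these lists, the calls of ABCB9, GNPTAB, LAMTOR3, MITF, SIAE and TSC2 in PC3 cells were lost in 2 to 9 of 14 alternatives, and those of ATP6V1B1, ATP6V1C2, ATP6V1E2, FNIP2, GM2A, LAPTM4B, LGALS3, MCOLN2, MTOR, NPC1, PRCP and SLC11A2 in DU145 cells in 1 to 11.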

How the data were processed

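Per the study's methods and the submitters' processing notes, poly(A) RNA was sequenced and aligned to GRCh38 with HISAT2 2.1.0, and genes were tested by the authors with DESeq 1.18.1. The counts were deposited by the authors as whole reads per gene without normalization; strand use in counting is not given in the sources used here. A rescaled copy named FPKM and a table per line of the authors' fold changes and p-values were not used. Of 33595 entries with an Ensembl identifier, names repeated with identical counts were kept once, leaving 32077 genes, and 44 lines of overflowing annotation were left out. Positions matched GENCODE release 29, the source of exon lengths and overlaps, exactly for 40 of 43 members. Samples were grouped by their labels.

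edgeR 4.0.16 (R 4.3.3) was run with TMM, filterByExpr at a minimum count of 10 and the quasi-likelihood test, with Benjamini-Hochberg adjustment over all genes. Each line was fitted with its own 6 samples, the difference between lines as an interaction over 12 samples, and the lines without drug on 6 vehicle-treated samples. CPM values use TMM over all 12 samples. Alternatives were DESeq2 1.42.0, other size factors, other filters, all samples in 1 fit, a replicate block and leaving out each sample. The script was tested on simulated data. Replicates of a group differed by more than sampling noise (mean chi-square per gene 1.72 to 7.30, over genes with at least 20 summed counts). Vehicle-treated PC3 cells, which enter every PC3 comparison, were the noisiest, at 3.64 to 7.30, and the other groups lay at 1.72 to 3.13. Members and gene lists were chosen with earlier results of these data known. Named with all values were LAMP1, LAMP2, TFEB, TFE3, members past the threshold (adjusted p below 0.05, log2 fold change above 1 in size), the 5 largest called changes per line and direction, and the 6 largest called differences between lines. Sample values of some further members, such as CTSA, CTSD and GALNS, are also given. From each other list, up to 3 called genes per line and direction were named. Some genes of these lists are counted but not reported here.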

Additional observations from a re-analysis of the deposited data

Results flagged for a closer look

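The pentamidine effect differed between PC3 and DU145 cells for 8 members and for 15 other genes given here, by the interaction test of edgeR at an adjusted p below 0.05. Of all 15226 genes tested 20.4% were called. The share was 19.0% of the 42 members and 18% of the 100 tested genes of the other lists, so neither was above that of all genes. Values are the log2 fold change in PC3 cells minus that in DU145 cells.

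Among the members the difference was 0.88 for TFE3, 0.48 for NEU1, 0.39 for CTSL and 0.29 for PSAP. It was -0.48 for NAGLU, -0.33 for ARSB, -0.28 for GUSB and -0.23 for CTSA. The differences of NAGLU and ARSB were lost in 14 and 11 of 19 alternatives.

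Among the other membrane proteins and transporters it was 4.81 for LAMP3, 0.84 for NPC1, 0.52 for MCOLN3, 0.28 for SLC36A1 and -0.51 for ABCA2. The other enzymes gave -0.75 for CTSV, -0.42 for GGH and -0.36 for GM2A. The other V-ATPase subunits gave -1.71 for ATP6V0A4, -0.33 for ATP6V0E2 and 0.23 for ATP6V1G1. The sorting genes gave 0.50 for IGF2R and -0.44 for GGA2, and the mTORC1 genes gave 0.28 for FLCN and 0.28 for RPTOR. The calls of ATP6V1G1, FLCN, MCOLN3 and SLC36A1 were lost in 8 to 13 of 19 alternatives, and that of ATP6V0A4 in 1 of 18.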

How the results depend on the processing

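For each comparison the numbers of members called higher and lower and their median log2 fold change were recomputed, together with the values of the genes named. The calls on all members were kept in every alternative for 13 of 22 members in PC3 cells, 15 of 22 in DU145 cells, 6 of 8 for the difference between lines and 31 of 38 between the vehicle-treated lines. Of 2547 recomputed gene values 2294 kept their direction and call, 234 lost the call, 1 gained it (LAMP1 in DU145 cells with library size alone, 0.12, adjusted p = 0.00811) and 18 changed sign.

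With library size alone, 5 members fell in DU145 cells and the median was 0.105, 7 members were lower for the difference between lines with a median of -0.057, and the median between vehicle-treated lines was 0.0020. With library size without mitochondria-encoded genes, likewise without TMM, the medians were 0.038 in PC3 cells, -0.036 for the difference and -0.0084 between vehicle-treated lines. Without a filter, the medians were 0.036 in DU145 cells and -0.037 between vehicle-treated lines. DESeq2, RLE size factors and no filter each left 2 members lower for the difference between lines. Over all genes 1284, 1420 and 1362 were lower with these settings, against 1566 in the main fit. The cause of these shifts was not tested.

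Leaving out each sample in turn gave 8 to 14 members higher (8 without PC3 pentamidine replicate 3), 7 to 10 lower and a median of 0.029 to 0.093 in PC3 cells. Over all genes 4866 to 6180 were then called, against 6010 of 13861 with no sample left out. Without PC3 pentamidine replicate 3 the all-gene calls were 5148 of 14160. In DU145 cells it gave 11 to 15 members higher, 5 to 9 lower (5 without vehicle replicate 3) and a median of 0.031 to 0.071. The all-gene calls were 4051 (without vehicle replicate 3) to 4421, against 4860 with no sample left out. The difference between lines gave 4 to 5 higher, 2 to 3 lower and a median of -0.0084 to 0.015, and the vehicle-treated lines 15 to 18 higher, 17 to 19 lower and a median of -0.100 to -0.048. The all-gene calls were 2644 to 3268 for the difference, against 3112 with no sample left out. Between the vehicle-treated lines they were 8777 to 9672, against 9405.

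The changes of sign concern small values that did not pass the test. In PC3 cells LAMP1 gave -0.0081 with library size alone and -0.025 with library size without mitochondria-encoded genes. With each sample left out it gave -0.020 to 0.058, where NAGLU gave -0.092 to 0.14 and ARSA -0.065 to 0.025. In DU145 cells NEU1 gave 0.043 with library size alone, 0.0055 with library size without mitochondria-encoded genes and -0.029 to 0.018 with each sample left out. LAMP2 gave -0.0013 without a filter and -0.024 to 0.029, GUSB -0.0042 to 0.045 and TFEB -0.16 to 0.28 with each sample left out.

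Same-numbered samples did not deviate together (correlations of their deviations from the group means between -0.073 and 0.039), so the numbers were not treated as a pairing. With the replicate number as a block, 11 members rose and 9 fell in PC3 cells, 15 rose and 8 fell in DU145 cells, and the difference between lines left 2 lower. The calls over all genes were then 5599, 4794 and 2803, of which 2781, 2360 and 1397 were lower. At this depth the small counts of TFEB limit what could be detected, while ATP6V0C shares most of its exon bases with genes not analysed here.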

Other observations

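Among the other lysosomal enzymes, 3 had no read in any of the 6 PC3 samples. They are GALC, the galactosylceramidase, CTSF, a cysteine cathepsin, and CPVL, a carboxypeptidase. In vehicle-treated DU145 cells GALC had 252, 309 and 277 reads, CTSF had 142, 166 and 149 reads and CPVL had 81, 88 and 89 reads. With a floor of 3 counts per library, vehicle-treated PC3 cells were at least 89.2-fold lower for GALC, 48.7-fold lower for CTSF and 27.5-fold lower for CPVL. These genes were chosen after their values were seen.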
